A study of Mus musculus with 16 samples.

Results

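Skeletal muscle of treadmill-trained CHCHD4 Tg mice was compared with muscle of untrained WT mice, so that both factors of the study, exercise and genotype, differed at once. The comparison used 8 of the 16 RNA-seq libraries: 4 libraries of genotype CHCHD4 Tg with treadmill training (trained Tg) and 4 libraries of genotype WT with no training (untrained WT). The other 8 libraries, 4 of trained WT and 4 of untrained Tg mice, gave the 2 single differences from untrained WT that the combined one is set against. The labels give the tissue as skeletal muscles and name neither the muscle, the strain or age of the mice, nor the promoter that drives the transgene. Whether each library stands for its own animal is not stated, and p-values therefore reflect library-to-library spread, which may be technical. Of 55487 genes in the table, 17490 had enough counts to be tested, and 362 of them (2.07%) were called between trained Tg and untrained WT.

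CHCHD4, also known as MIA40, is the oxidoreductase of the mitochondrial intermembrane space that forms disulfide bonds in imported proteins, among them assembly factors and subunits of the respiratory chain. Endurance training of rodents is known to raise mitochondrial content, to shift fast fibres from the glycolytic IIB type, which uses the myosin Myh4, towards the more oxidative IIX and IIA types, which use Myh1 and Myh2, and to increase the capillary supply. Whole muscle also holds vessels, fibroblasts, fat cells, nerve and macrophages. In such bulk samples fewer cells of a type and less RNA per cell cannot be told apart.

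Library totals ranged from 40888325 to 61703724 counts, and levels are given as CPM, counts scaled to a common library size with TMM factors. Chchd4 measured 22.2, 21.6, 21.6 and 21.8 CPM in the trained Tg libraries and 8.13, 6.88, 7.62 and 8.98 in the untrained WT libraries. Neither overlapped the other; the log2 fold change (log2FC) was 1.46 (SE 0.083) at an adjusted p of 5.16e-08 (edgeR). The fast myosin Myh4 measured 24618 to 37430 CPM over the 16 libraries. Untrained WT library 2 stood apart from its group: its TMM factor was the highest of the 16 at 1.285, its Myh1 level was 3296 CPM against 9087 to 10810 in the other 3, and it held 14.9 CPM of Alb, a liver transcript, and 11.2 CPM of the slow myosin Myh7. Many of the counts and values that changed without it are given with the results. More than 10 CPM of Alb was found in 3 libraries and of Myh7 in 4, none of them trained Tg.

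Of the 362 called genes, 177 were higher (1.01% of those tested) and 185 lower (1.06%) in trained Tg, and 65 were gene models without a name. A call required a Benjamini-Hochberg adjusted p under 0.05 in edgeR's quasi-likelihood test over all tested genes. Trained Tg and untrained WT libraries did not overlap at 354 of the 362 called genes. Lack of overlap, stated for single genes, therefore adds little to a call. The median log2FC over all tested genes was -0.0013 and 49.8% were positive. The count depended on single trained Tg libraries: it was 51 without library 2, 101 without library 3 and 37 without library 4. It was 156, 282, 226 and 233 without untrained WT libraries 1 to 4, and 608 without trained WT library 4. All 362 genes kept their direction in each of the 16 fits without 1 library, and 33 kept the call in all 16, of which 14 were unnamed models. Without the 3 libraries above 10 CPM of Alb 517 genes were called, and without the 4 above 10 CPM of Myh7 330 were.

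**Figure D1:**
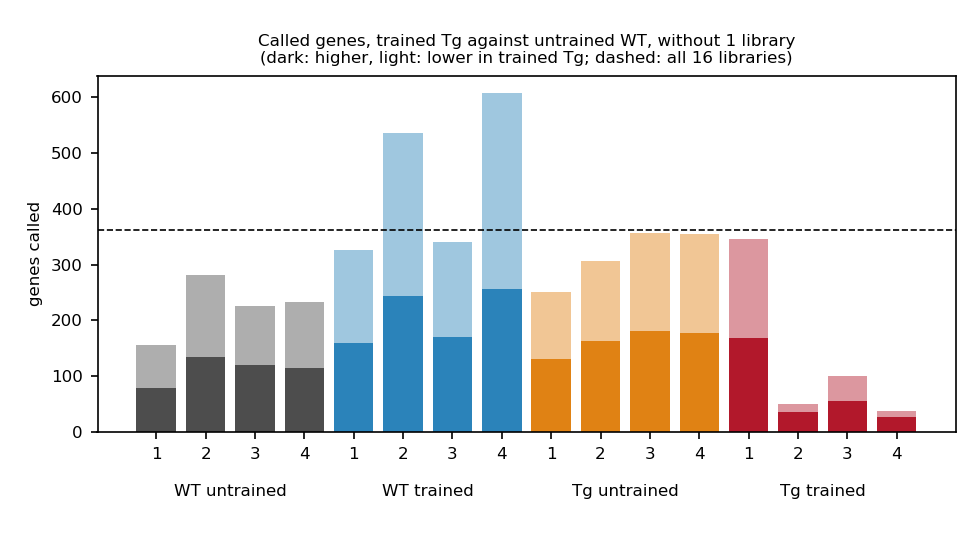
Number of genes called between trained Tg and untrained WT when each of the 16 libraries is left out (horizontal axis, library number within its group; dark, higher and light, lower in trained Tg). The dashed line marks 362, the count with all libraries; the bars for trained Tg libraries 2, 3 and 4 stand at 51, 101 and 37.

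Among named genes called at a mean of 5 CPM or more, the largest increases included Myh2 and 3 proteins of the Z-disc, the structure that anchors the thin filaments of the sarcomere. Myh2, the myosin heavy chain of IIA fibres, measured 977, 1547, 1898 and 1547 CPM in the trained Tg libraries and 563, 127, 452 and 613 in the untrained WT libraries. All trained Tg libraries lay above all untrained WT libraries, and the lowest untrained value was that of library 2. The log2FC was 1.77 (SE 0.362, adjusted p = 0.0263, edgeR), a 3.40-fold difference, and 1.46 without untrained WT library 2. The single differences of Myh2 were 0.43 for training in WT and 1.44 for the transgene without training (adjusted p = 0.724 and 0.0697).

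Fhl1, a LIM-domain protein of the sarcomere, measured 1121, 1305, 928 and 1283 CPM in trained Tg against 354, 130, 512 and 501 in untrained WT. The 4 trained Tg libraries were also above all 8 libraries of the single-factor groups, whose highest was 742 CPM. Its log2FC was 1.63 (SE 0.316, adjusted p = 0.0211, edgeR), beside 0.68 and 0.83 for the single differences. Actn2, the alpha-actinin of Z-discs in all fibre types, measured 344, 494, 425 and 493 CPM against 202, 101, 264 and 252, with a log2FC of 1.10. Myoz2, a calcineurin-binding Z-disc protein found mainly in slow fibres, measured 16.5, 23.6, 24.6 and 26.6 CPM against 10.3, 3.11, 7.47 and 11.6, with a log2FC of 1.495. Neither gene's groups overlapped. Mustn1, a small nuclear protein of the musculoskeletal system, measured 81.7, 51.9, 26.7 and 54.9 CPM against 17.5, 6.49, 19.0 and 21.5, a log2FC of 1.74. Bdh1, the mitochondrial enzyme that interconverts the 2 main ketone bodies, had a log2FC of 1.33, and the muscle relaxation regulator Smtnl1 one of 1.10. The calls of these 7 genes were each lost in 3 to 12 of the 16 fits without 1 library, with adjusted p of up to 0.14. Fitting only the 8 libraries of the 2 groups left Fhl1 at the threshold (adjusted p = 0.05) and gave 0.0522 to 0.106 for the other 6.

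As lists, the change in fibre genes was narrow. For comparison, 1.01% of all tested genes were called higher. Of 18 tested slow-twitch fibre genes 2 were called higher, Myoz2 and Actn2, of which the latter is used by all fibre types, and the list median was 0.18. Of 16 fast-twitch fibre genes 1 was called, Myh2, at a median of -0.05. Of 7 skeletal muscle myosin heavy chains, a list chosen after the values were seen, Myh2 was the 1 called. Myh1 had a log2FC of 0.54 (adjusted p = 0.299), Myh4 one of -0.08 (0.782) and Myh7 one of -1.25 (0.553). Of 22 Z-disc proteins, also listed after the values were seen, 3 were called higher and the median was 0.19, or 0.07 without untrained WT library 2.

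The upstream sequence of Myoz2 is shown because it holds CTA and TAG separated by 4 bases. This pattern, with any base allowed between, is looser than the site bound by the MEF2 factors of muscle genes. Counts of it are therefore not counts of MEF2 sites. The 250 bases before its start site (RefSeq, GRCm38.p6, chr3:123034988-123035237, minus strand) are printed 5′ to 3′, with the match in capitals.
Myoz2: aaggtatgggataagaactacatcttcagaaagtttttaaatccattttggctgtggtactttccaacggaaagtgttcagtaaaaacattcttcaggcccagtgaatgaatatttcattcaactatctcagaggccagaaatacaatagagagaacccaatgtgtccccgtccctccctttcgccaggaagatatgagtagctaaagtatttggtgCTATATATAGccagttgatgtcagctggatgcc
The match lies 33 to 24 bases before the start; the pattern, picked after the sequence was seen, was searched on both strands. It was found in 3.2% of the 32851 upstream windows of this length in the RefSeq table. Among genes called higher 2 of 120 with a window held it, and among genes called lower 5 of 135.

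The 3 small heat shock proteins Hspb6, Hspb7 and Cryab, chaperones of the contractile and cytoskeletal filaments, rose in trained Tg muscle. Cryab measured 363, 284, 198 and 287 CPM against 160, 192, 145 and 195 in untrained WT, so that the lowest trained Tg library lay just above the highest untrained WT library. Its log2FC was 0.71 (SE 0.15, adjusted p = 0.0287, edgeR), while both single differences were near 0, at -0.0016 for training in WT and -0.01 for the transgene. The departure from their sum was 0.73 and was not called (adjusted p = 0.593). Hspb6 measured 286, 320, 281 and 325 CPM against 168, 67.0, 184 and 193, with a log2FC of 0.99 (0.73 without untrained WT library 2). Hspb7 measured 177, 188, 94.5 and 193 CPM against 50.4, 98.6, 77.0 and 68.1; here trained Tg library 3 fell within the untrained range. Its log2FC was 1.15.

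The chaperones Hspa8 and Hsp90aa1 fell, while the co-chaperone Dnaja4, named after its values were seen, rose (log2FC 0.69, adjusted p = 0.0399, edgeR). Hspa8, the constitutive cytosolic member of the Hsp70 family, measured 552, 503, 529 and 488 CPM in trained Tg and 707, 732, 671 and 732 in untrained WT, without overlap. Its log2FC was -0.46 (SE 0.0687, adjusted p = 0.00505, edgeR), and its call held in all 16 fits without 1 library. Hsp90aa1, the inducible cytosolic Hsp90, also named after its values were seen, fell by 0.71 on the log2 scale (adjusted p = 0.0399, edgeR). Of 20 heat shock proteins and co-chaperones, 3 were called higher and 2 lower, 25% against 2.07% of all genes. The calls of Cryab, Hspb6 and Hspb7 were lost in 5, 4 and 6 of the 16 fits without 1 library, and that of Hsp90aa1 in 8.

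A few genes of the secretory pathway fell by small amounts. All 20 genes of a list for folding and translocation in the endoplasmic reticulum had a log2FC under 0, the median being -0.23. Of these 6 were called (30% against 1.06% of all genes called lower): Serp1, Rpn2, Xbp1, Sec61a1, Pdia6 and Hsp90b1. The list was drawn up after the values were seen, so its direction, its calls and its summed level are not independent evidence. Without untrained WT library 2 the list had 3 called genes at a median of -0.23, and over the 16 fits without 1 library 0 to 8 were called. The summed level of the list was 459 to 493 CPM in trained Tg libraries and 529 to 548 in untrained WT, without overlap; in the single-factor groups it was 503 to 529 in trained WT and 486 to 497 in untrained Tg. Hsp90b1, the resident Hsp90 of the endoplasmic reticulum, fell by 0.24 on the log2 scale (adjusted p = 0.0464), and its call was lost in 11 of the 16 fits, with Sec61a1 losing it in 13, Pdia6 in 10, Xbp1 in 8, Rpn2 in 6 and Serp1 in 2. Without untrained WT library 2 Hsp90b1 had an adjusted p of 0.0516.

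Several genes of vessel walls, among them Notch3, Cspg4, Pdgfrb, Erg and Egfl7, rose in trained Tg muscle. Notch3, the Notch receptor of pericytes and smooth muscle, measured 24.8, 28.3, 28.7 and 31.4 CPM in trained Tg and 16.6, 13.6, 20.6 and 19.9 in untrained WT. Those groups did not overlap, and the log2FC was 0.68 (SE 0.114, adjusted p = 0.0104, edgeR). The pericyte proteoglycan Cspg4 (0.56) and the receptor Pdgfrb (0.44) were also called. This made 3 of 14 smooth muscle and pericyte markers called higher, against 1.01% of all genes. Of these 14 markers 9 had a positive and 5 a negative log2FC, and the list median was 0.12. Of 15 endothelial markers 14 had a positive log2FC, with a median of 0.21, and 2 were called: Erg (0.64), an endothelial transcription factor, and Egfl7 (0.67), a protein secreted by endothelium. Efnb2, the ligand that marks arterial endothelium, had a log2FC of 0.91, and Cited2, a regulator of hypoxia-inducible transcription, one of 0.90. Egfl7, Pdgfrb and Efnb2 were not called without untrained WT library 2 (adjusted p = 0.0764, 0.0574 and 0.052). Of 16 genes of Notch signalling, listed after the values were seen, Notch3 was the 1 called.

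**Figure D2:**
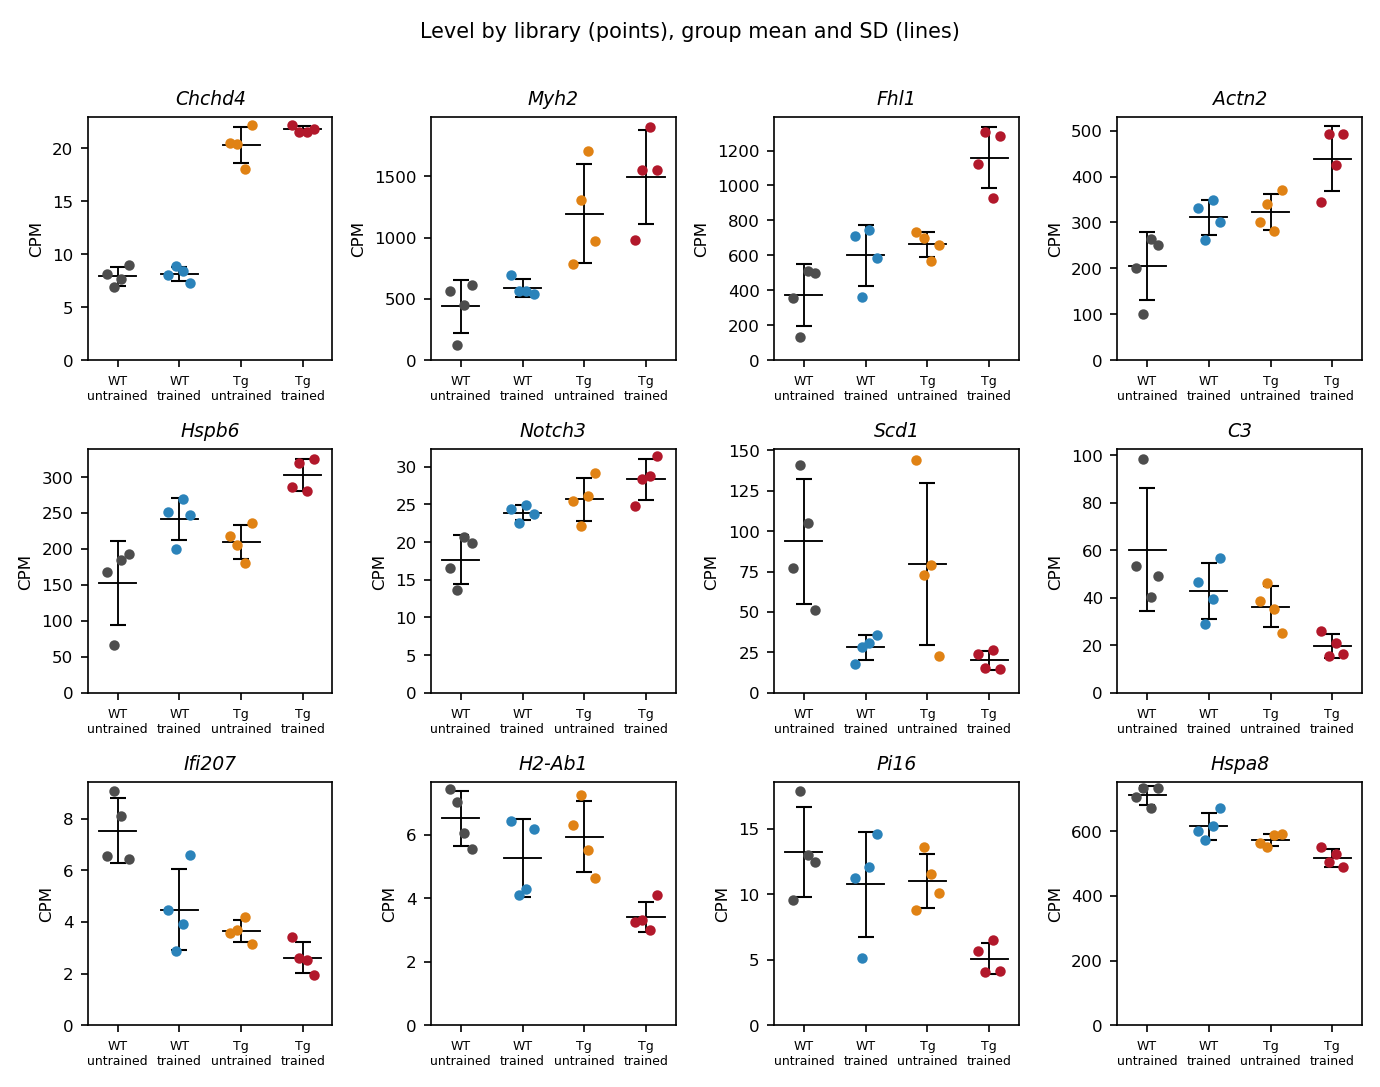
CPM (vertical axis, from 0) of 12 genes in each of the 16 libraries by group (points), with the group mean and SD (lines). In the panels of Fhl1 and Hspb6 the trained Tg libraries are above every other library; in the panel of Scd1 both trained groups are low, at 14.5 to 35.8 CPM.

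Respiratory chain genes showed no called change. All 49 tested nuclear genes of oxidative phosphorylation had a positive log2FC, against 49.8% of all genes, with a median of 0.23 and 0 called. Their summed level was 9386 to 9699 CPM in trained Tg, and 4909 to 9198 in untrained WT, where library 2 was the lowest. Without that library the median was 0.05. The 13 protein genes of the mitochondrial genome had a median of 0.30, or 0.15 without untrained WT library 2, and 0 were called; mt-Nd6 had the smallest p (log2FC 0.58, adjusted p = 0.054). Cox6a2 and Cyc1, subunits of complexes IV and III, had the smallest p of the nuclear list (log2FC 0.34 and 0.39, adjusted p = 0.186 and 0.236). Among 32 genes of the disulfide relay and its substrates 0 were called, at a median of 0.07. The 20 genes of PGC-1 coactivators and mitochondrial biogenesis had 0 calls and a median of 0.10. The 26 genes of glycolysis and glycogen had 0 calls and a median of 0.16, or -0.02 without untrained WT library 2.

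Ucp3, Pdk4 and Angptl4, which are known to respond to fatty acids and fasting, fell in trained Tg muscle. Ucp3, the uncoupling protein of muscle mitochondria, measured 61.8, 54.8, 44.9 and 57.3 CPM in trained Tg and 80.1, 86.2, 104 and 106 in untrained WT. The groups did not overlap, and the log2FC was -0.78 (SE 0.143, adjusted p = 0.0152, edgeR). Pdk4, the kinase that shuts off pyruvate dehydrogenase, measured 164, 142, 133 and 133 CPM against 180, 187, 334 and 260, a log2FC of -0.75. Angptl4, an inhibitor of lipoprotein lipase, fell by 1.38 on the log2 scale. These were the 3 called genes of 28 for fatty acid uptake and oxidation (10.7%, against 1.06% of all genes called lower). Of the 28 genes 23 had a positive log2FC, against 49.8% of all genes, and the median was 0.20 (0.06 without untrained WT library 2). The calls of Ucp3, Pdk4 and Angptl4 were lost in 2, 9 and 5 of the 16 fits without 1 library, and Angptl4 had an adjusted p of 0.0649 without untrained WT library 2.

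Lipogenic and adipocyte genes were among the genes that fell most. Scd1, the stearoyl-CoA desaturase, measured 23.8, 15.2, 26.4 and 14.5 CPM in trained Tg and 77.2, 141, 105 and 51.1 in untrained WT, without overlap. Its log2FC was -2.23 (SE 0.433, adjusted p = 0.0212, edgeR), a 4.69-fold lower level, and the single differences were -1.74 for training in WT and -0.23 for the transgene. Fasn, fatty acid synthase, fell by 1.10 on the log2 scale. Scd1 and Fasn were the 2 called of 18 lipid synthesis genes (11.1%, against 1.06% of all genes called lower), at a list median of -0.11.

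Among 14 tested adipocyte markers 12 had values below 0, the median being -1.39, and 4 were called lower (28.6% against 1.06% of all genes). The median was -0.63 for training in WT and 0.09 for the transgene without training. Adipoq, the adipokine adiponectin, measured 1.12, 0.351, 1.97 and 0.427 CPM against 4.04, 8.41, 3.51 and 2.22, a log2FC of -2.25. Pparg, the master regulator of fat cell differentiation, measured 1.52, 1.18, 1.36 and 1.495 CPM against 2.36, 2.52, 2.71 and 2.54, a log2FC of -0.87 (SE 0.149, adjusted p = 0.0104). The groups did not overlap for either gene. Cidec, a lipid droplet protein, and Retn, the adipokine resistin, had log2FC of -2.39 and -2.76 at levels of a few CPM or less. Without untrained WT library 2 the list median was -1.16, and Adipoq, Cidec, Retn and Fasn were not called (adjusted p of 0.0589 to 0.087); Pparg and Scd1 were. The summed level of the list was 860 to 1149 CPM in trained Tg and 1028 to 1493 in untrained WT, so these ranges overlapped.

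Single genes of complement, of MHC class II antigen presentation and of the p200 family fell in trained Tg muscle. C3, the central complement component, measured 26.2, 15.4, 20.9 and 16.3 CPM in trained Tg and 53.2, 98.4, 40.4 and 49.1 in untrained WT. The groups did not overlap, and the log2FC was -1.62 (SE 0.275, adjusted p = 0.0104, edgeR), or -1.28 without untrained WT library 2. C4b measured 3.97, 2.53, 7.16 and 2.37 CPM against 11.7, 42.5, 11.2 and 8.82; its log2FC of -2.22 was -1.41 and not called without untrained WT library 2 (adjusted p = 0.0834). Of 21 complement genes, a list chosen after the values were seen, 7 were called lower and 1 higher, the lectin-pathway protease Masp1 (log2FC 0.68), which is 38.1% called against 2.07% of all genes, and the median was -0.92. Without untrained WT library 2 the list had 2 genes called lower and a median of -0.74, and C1ra, Cfb and C1qa also lost the call (adjusted p = 0.0736, 0.0665 and 0.0944). Over the 16 fits without 1 library 1 to 11 of its genes were called.

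The 7 tested MHC class II genes, which present antigen on macrophages and other professional cells, were all lower in direction. The median was -0.81 and 4 were called lower, against 1.06% of all genes: H2-Ab1, H2-Aa, H2-Eb1 and the invariant chain Cd74. H2-Ab1 measured 3.26, 3.32, 2.99 and 4.10 CPM in trained Tg and 7.43, 7.02, 6.04 and 5.54 in untrained WT, without overlap, a log2FC of -0.93 (SE 0.168, adjusted p = 0.0139). In the single differences H2-Ab1 was at -0.30 and -0.14. This list, too, was chosen after the values were seen. Over the 16 fits without 1 library 0 to 4 of its genes were called. H2-Aa and H2-Eb1 each lost the call in 4 of these fits, Cd74 in 3 and H2-Ab1 in 1.

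Of 18 macrophage and monocyte markers 17 had values below 0, the median being -0.97, while 49.8% of all genes had values above 0. Called lower were 2 (11.1%, against 1.06% of all genes): the scavenger receptor Cd163 (-1.06) and the complement subunit C1qa (-1.22). The summed level of the 18 markers was 35.1 to 49.0 CPM in trained Tg, below the 61.7 to 103 in untrained WT. Trained WT held 38.8 to 127 and untrained Tg 39.4 to 74.6. Without untrained WT library 2 the median was -0.82, and Cd163 and C1qa had adjusted p of 0.0677 and 0.0944. The part of these cells in the complement and class II results was not tested.

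The p200 family, cytosolic and nuclear sensors of DNA encoded side by side on chromosome 1, held 4 called decreases. Ifi207 measured 3.41, 2.60, 2.52 and 1.94 CPM in trained Tg and 6.55, 9.07, 8.11 and 6.43 in untrained WT. Ifi205 measured 4.98, 2.95, 2.93 and 2.91 CPM against 10.03, 12.1, 12.5 and 10.2. Both sets were free of overlap, with log2FC of -1.53 (SE 0.212, adjusted p = 0.00286, edgeR) and -1.71 (SE 0.279, adjusted p = 0.01). Ifi204 (-1.53) and Ifi211 (-1.31) were also called, which makes 4 of the 10 tested members, against 1.06% of all genes called lower. The list was chosen after the values were seen. Of its 10 tested members 3 had values above 0, the highest at 1.86, and 0 were called higher. Ifi204, Ifi205 and Ifi207 kept the call in all 16 fits without 1 library. The members share sequence, so the division of reads among them is uncertain. Of 43 type I interferon-stimulated genes 1 was called (2.33%, against 2.07% of all genes), Ifi27l2a (-2.51, or -1.82 without untrained WT library 2). The median of that list was 0.01. Of 20 genes of cGAS, STING and NF-kappaB signalling 0 were called, at a median of -0.08. Because the p200 list was picked after its values were seen, its share of calls cannot be weighed against those of these lists.

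The upstream 250 bases of Ifi205 (chr1:174031756-174032005, minus strand) and Ifi207 (chr1:173741810-173742059, minus strand; both RefSeq, GRCm38.p6) are shown because these genes fell together and resemble each other before their start sites. Capitals mark the longest run that is the same in both, of 31 bases.
Ifi205: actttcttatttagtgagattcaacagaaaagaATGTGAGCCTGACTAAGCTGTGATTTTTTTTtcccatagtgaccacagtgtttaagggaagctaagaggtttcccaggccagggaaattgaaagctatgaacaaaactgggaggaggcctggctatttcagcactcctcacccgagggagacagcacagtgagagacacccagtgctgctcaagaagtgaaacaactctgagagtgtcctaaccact
Ifi207: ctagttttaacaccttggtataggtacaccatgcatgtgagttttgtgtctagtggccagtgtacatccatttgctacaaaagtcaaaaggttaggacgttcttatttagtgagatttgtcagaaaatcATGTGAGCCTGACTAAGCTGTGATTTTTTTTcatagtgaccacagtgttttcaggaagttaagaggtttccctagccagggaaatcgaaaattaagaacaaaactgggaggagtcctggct
The run begins 217 bases before the start site of Ifi205 and 121 bases before that of Ifi207.

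Among fibroblast and matrix genes, Pi16, Dpt, Dpp4 and Loxl1 fell. For comparison, 1.06% of all tested genes were called lower, and 49.8% had a positive log2FC. Of 14 markers of fibroblasts and fibro-adipogenic progenitors, the interstitial cells that form matrix and fat, 13 had values below 0, the median being -0.65, and 3 were called lower. Pi16, a marker of adventitial fibroblasts, measured 5.65, 4.05, 6.47 and 4.12 CPM in trained Tg and 9.55, 17.9, 13.0 and 12.4 in untrained WT. Its groups did not overlap, and the log2FC was -1.39 (SE 0.264, adjusted p = 0.0197, edgeR), beside -0.30 and -0.27 for the single differences. Dpt, the matrix protein dermatopontin, and Dpp4, a peptidase of fibroblast progenitors, fell by 0.98 and 1.14 on the log2 scale. The summed level of the list was 441 to 545 CPM in trained Tg against 720 to 853 in untrained WT. Of 29 collagen and matrix genes 25 had values below 0, the median being -0.37, and 1 was called, the crosslinking enzyme Loxl1 (-0.87). Without untrained WT library 2, Dpp4 and Loxl1 were not called (adjusted p = 0.0829 and 0.052, edgeR). In that fit the matrix list had 5 genes called lower at a median of -0.49 and the fibroblast list 4 at -0.56. Over all genes 147 were called lower in it. Without the 3 libraries above 10 CPM of Alb the list counts were 11 and 5, beside 317 called lower over all genes. Egfr, the epidermal growth factor receptor, measured 16.7, 13.2, 16.3 and 12.9 CPM against 28.3, 29.0, 29.4 and 28.7, a log2FC of -0.97 without overlap. Thbs1, a matrix glycoprotein, had the largest decrease at a mean of 5 CPM or more, with a log2FC of -2.38. Its untrained WT values were 15.6, 15.7, 78.7 and 16.1 CPM against 7.77, 4.02, 8.11 and 4.35, and without untrained WT library 3 the log2FC was -1.39 and not called (adjusted p = 0.0993).

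**Figure D3:**
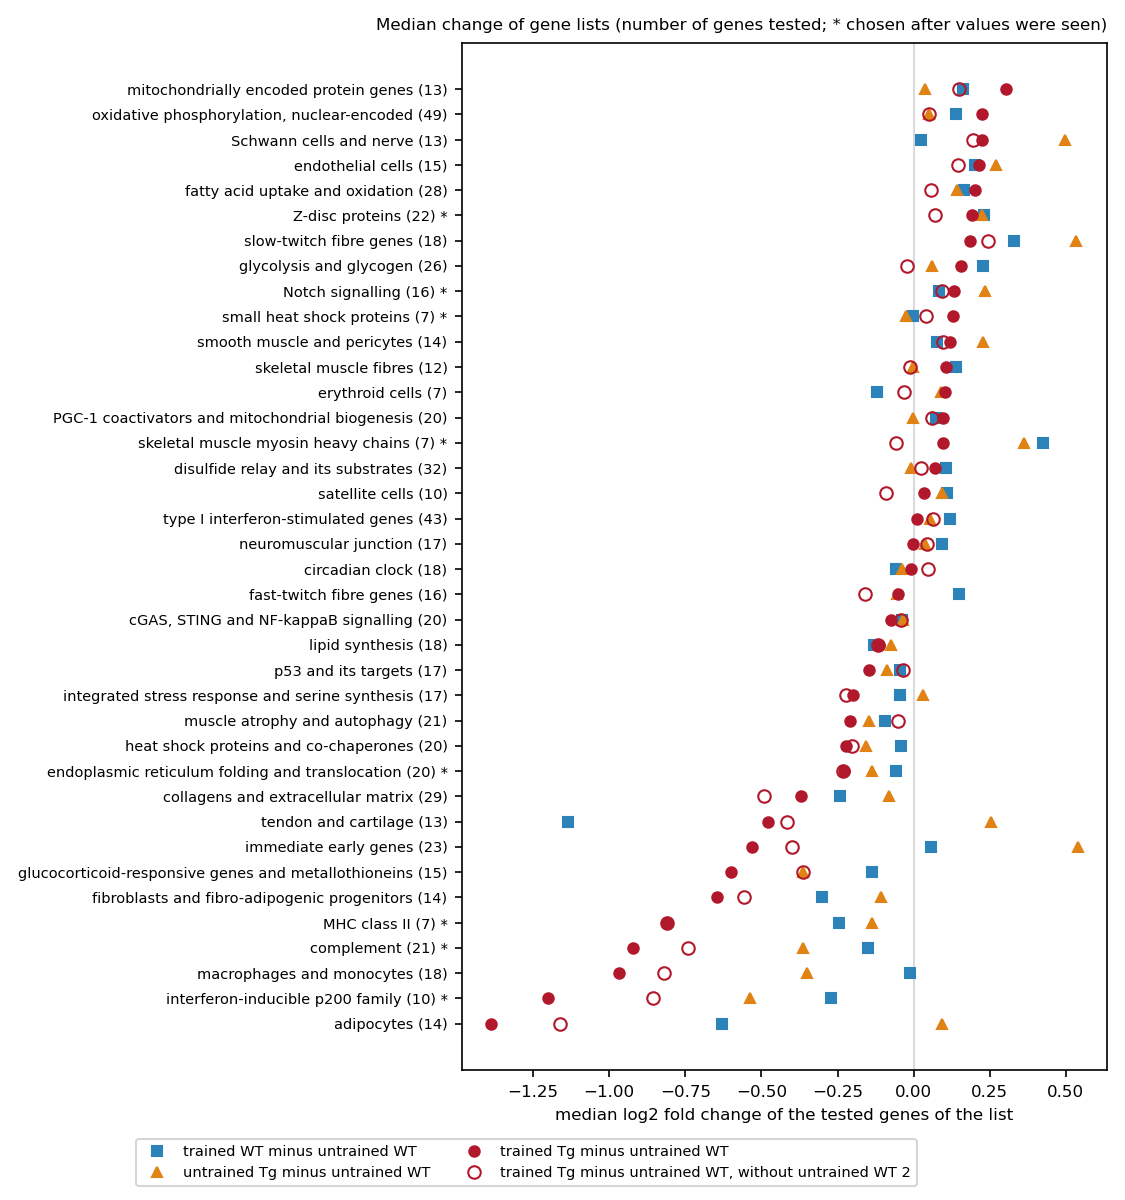
Median log2FC (horizontal axis) of the 38 lists with at least 7 tested genes, the neutrophil, lymphocyte and hepatocyte lists being left out, in 3 differences from untrained WT (filled symbols), which share the untrained WT libraries, and in the combined difference without untrained WT library 2 (open circles). Of the lists drawn, adipocyte markers have the lowest combined median, -1.39, and the mitochondrially encoded genes the highest, 0.30.

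Genes that follow stress hormones and stimulation had no broad set of calls. For comparison, 2.07% of all tested genes were called, and 49.8% had a positive log2FC. Of 15 glucocorticoid-responsive genes and metallothioneins 14 had a negative log2FC (median -0.60, or -0.36 without untrained WT library 2), and 2 were called, Pdk4 and the metal-binding protein Mt2 (-2.95, not called without that library, adjusted p = 0.0641). Of 23 immediate early genes, the rapid responders to stimulation, 20 had a negative log2FC at a median of -0.53, and 0 were called. Their medians in the single differences were 0.06 for training in WT and 0.54 for the transgene without training, and the median departure from the sum was -1.06. Of 18 circadian clock genes Per3 (0.39, adjusted p = 0.0566 without untrained WT library 2) was called higher and Ciart (-0.79) lower; the time of day of sampling is not given. The neuromuscular junction list had 1 call among 17, the agrin receptor Lrp4 (0.44).

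A further 7 lists had 0 calls in the combined difference. Their medians were -0.21 for 21 genes of muscle atrophy and autophagy, -0.20 for 17 of the integrated stress response and serine synthesis, and -0.15 for 17 of p53 and its targets. They were -0.48 for 13 tendon and cartilage markers, 0.22 for 13 Schwann cell and nerve markers, 0.03 for 10 satellite cell markers and 0.10 for 7 erythroid markers. Without untrained WT library 2 the first 3 of these 7 medians were -0.05, -0.22 and -0.04. Those of the 4 cell type lists were then -0.42, 0.19, -0.09 and -0.03, so the last 2 changed sign. Separately, few neutrophil (4), lymphocyte (2) and hepatocyte (2) markers were tested. Alb was the hepatocyte marker high in 3 libraries, and Trf, which muscle also expresses, was called (-1.60). The list of 12 general muscle fibre genes had a median of 0.10, or -0.01 without untrained WT library 2. Myh2 was its 1 call. Triap1, a target of the disulfide relay, Myod1, Cgas and Sting1 were not called (log2FC -0.09, -0.38, -0.40 and -0.01).

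On the log2 scale, the combined difference can be set beside the sum of the difference of trained WT and that of untrained Tg from untrained WT. Those comparisons called 25 genes (0.143%) and 130 genes (0.743%) respectively. All 3 share the untrained WT libraries, and the sum counts those libraries 2 times, so a level peculiar to untrained WT enters the sum 2 times and the combined difference once. The departure, which is the interaction of training and genotype, was called for 9 genes (0.0515%), with 1054 at an unadjusted p under 0.05.

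For the 177 genes called higher, the median log2FC was 0.61, beside 0.33 for training in WT and 0.45 for the transgene, and the median sum was 0.78. The combined difference was smaller than the sum for 139 of them and larger for 38. For the 185 genes called lower the median was -0.79, beside -0.33 and -0.34, and the median sum was -0.75; 95 were smaller in size than the sum and 90 larger. Of all 362 genes, 293 had both single differences of the same sign as the combined one and smaller in size. These shares describe genes that were chosen by the combined difference and are not a test. Of the 298 called genes at which untrained WT did not stand apart, 0 had a called departure, beside 0.0515% of all genes. At so low a share this 0 does not show that the single differences add up. Cryab, Hspb7, Masp1 and H2-Ab1 are examples in which the combined difference was larger than the sum, with departures of 0.73, 0.39, 0.52 and -0.49. Departures were -0.10 for Myh2, 0.12 for Fhl1, -0.16 for Actn2 and -0.26 for Scd1. None of these departures was called (adjusted p of 0.593 to 0.982, edgeR).

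**Figure D4:**
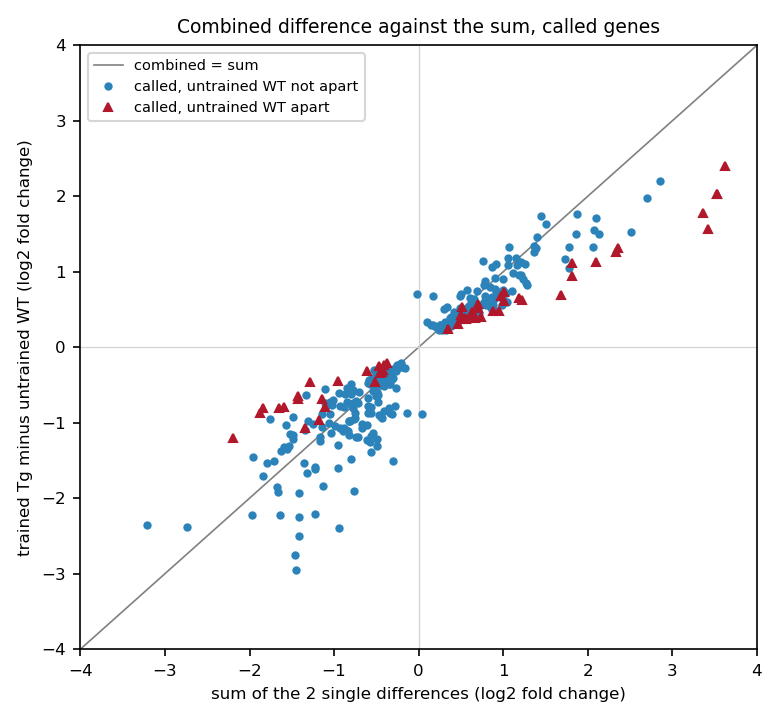
Combined log2FC (vertical axis) against the sum of the 2 single log2FC (horizontal axis) for 350 of the 362 called genes; 12 lie outside the axes, which end at 4. Triangles mark called genes at which untrained WT stands apart, of which 63 of 64 had a combined difference smaller than the sum. The rule that picks these genes makes this likely, so the count is not a test.

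Untrained WT differed from the mean of the 3 other groups at 155 genes (0.886%, edgeR). At 79 of these (0.452%) all 4 untrained WT libraries also lay above, or all below, the other 12 libraries, and these genes are described here as apart. In untrained WT 53 of them were lower and 26 higher, 26 had no name, and 64 were also called in the combined difference. A stricter count, of genes called in the same direction in all 3 pairwise differences from untrained WT, gave 21 (0.12%), of which 16 were lower and 5 higher in untrained WT. The 155 was 320 without trained WT library 4 and 62 without trained Tg library 4.

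Of 9 called departures 7 were at such genes, which the rule that picks them makes likely. Of the 76 genes apart with a position 23 lay in 8 runs of neighbours less than 500 kb from each other. The clearest run of named genes was on chromosome 10 of GRCm38, where Tmem19 (115339674 to 115362501, minus strand), Thap2 (115368404 to 115384443, minus) and Zfc3h1 (115384959 to 115432772, plus) lie next to each other. Zfc3h1, a zinc finger protein of nuclear RNA decay, measured 34.3, 30.6, 25.0 and 24.7 CPM in untrained WT and 17.7, 16.6, 15.7 and 15.4 in trained Tg; trained WT averaged 16.3 and untrained Tg 16.04. Thap2, a THAP-domain zinc finger protein, measured 13.9, 10.9, 10.8 and 11.2 CPM against 7.45, 6.75, 6.22 and 6.33. Tmem19, a membrane protein, measured 13.1, 11.4, 11.0 and 9.75 CPM against 6.14, 7.68, 6.89 and 8.18. In all 3 genes the other 3 groups lay together and below untrained WT. The combined log2FC were -0.81, -0.81 and -0.65 (adjusted p = 0.000552, 0.0015 and 0.00558), and the calls held in all 16 fits without 1 library. Since each single difference was as large (-0.82 and -0.84 for Zfc3h1), the departure was 0.85 for Zfc3h1 (adjusted p = 0.0266), 1.04 for Thap2 (0.0105) and 0.78 for Tmem19 (0.0602). The departure of Zfc3h1 was not called in 7 of the 16 fits without 1 library (adjusted p up to 0.0735), and that of Thap2 was called in all. The fourth tested model of the run, A130012E19Rik, lies within Zfc3h1 on the same strand and had a combined log2FC of -0.75 (adjusted p = 0.0723); reads of overlapping genes cannot be told apart here.

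The upstream sequences of Thap2 and Zfc3h1 are shown because both genes are read outwards from start sites 524 bp apart, and their levels moved together. The 250 bases before each start site (RefSeq, GRCm38.p6; Thap2 chr10:115384436-115384685, minus strand; Zfc3h1 chr10:115384709-115384958, plus strand) follow, each 5′ to 3′ on its own gene's strand. Capitals mark CGGAAG, the core letters bound by ETS factors, on either strand, where CTTCCG is its reverse complement; the motif was picked after the sequences were seen.
Thap2: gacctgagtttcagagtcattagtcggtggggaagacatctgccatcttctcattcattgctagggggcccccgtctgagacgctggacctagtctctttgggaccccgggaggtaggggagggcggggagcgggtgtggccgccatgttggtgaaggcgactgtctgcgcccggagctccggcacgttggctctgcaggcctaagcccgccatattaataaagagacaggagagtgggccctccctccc
Zfc3h1: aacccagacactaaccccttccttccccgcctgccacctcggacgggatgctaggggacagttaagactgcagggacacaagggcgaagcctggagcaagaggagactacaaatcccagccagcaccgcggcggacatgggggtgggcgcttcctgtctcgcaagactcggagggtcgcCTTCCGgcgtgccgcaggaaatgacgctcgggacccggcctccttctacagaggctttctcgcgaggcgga
Zfc3h1 holds 1 match and Thap2 none; 13.6% of the 32851 upstream windows hold at least 1.

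**Figure D5:**
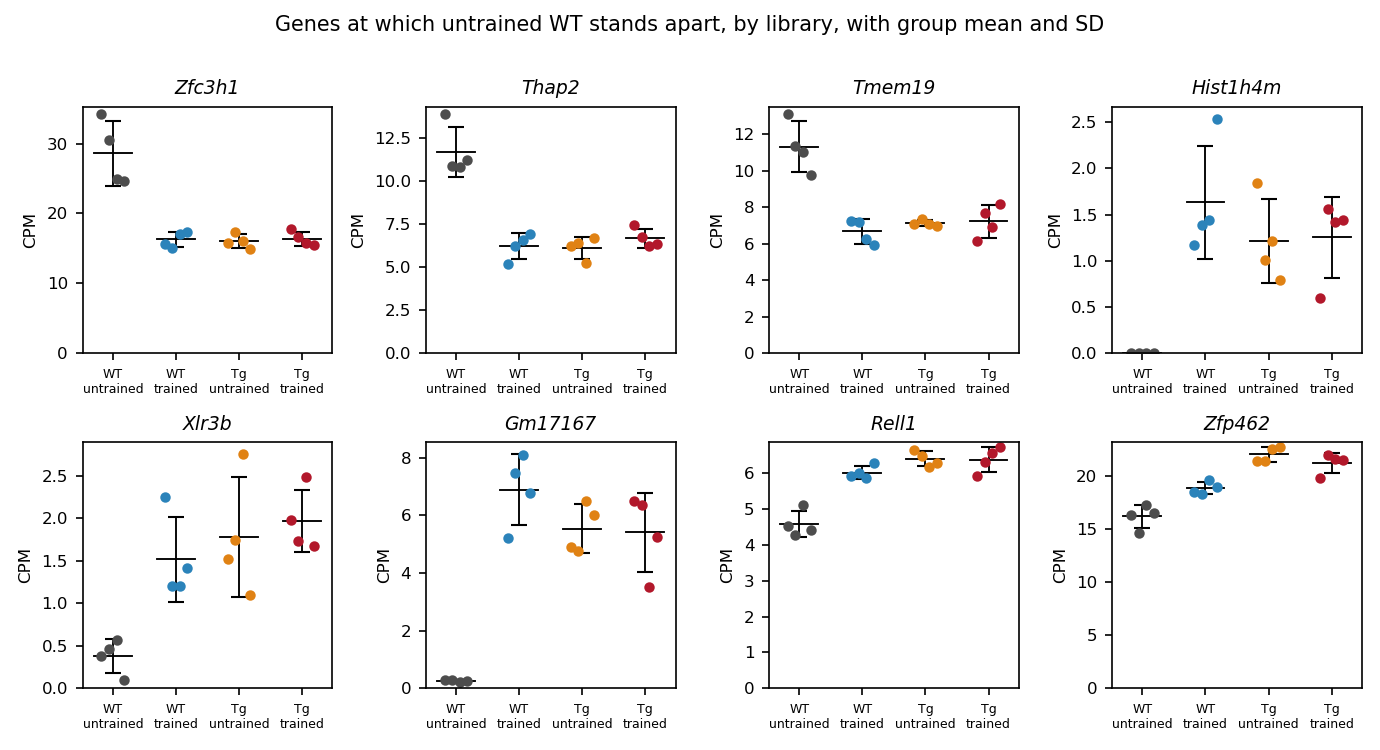
CPM (vertical axis, from 0) of 8 genes at which untrained WT stands apart, in each library by group (points), with the group mean and SD (lines). Untrained WT is above all other libraries for Zfc3h1, Thap2 and Tmem19 and below them for the other 5; Hist1h4m is at 0 in its 4 libraries.

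Other genes apart were lower in untrained WT. Hist1h4m, a histone H4 gene on chromosome 13, had no count in any untrained WT library and 0.601, 1.56, 1.42 and 1.44 CPM in trained Tg. The level in trained Tg was at least 20.5-fold higher, taking 3 counts per library as the floor. Histone H4 genes encode the same protein and share sequence, so its counts are uncertain. Xlr3b, a lymphocyte-regulated gene of the X chromosome, measured 1.98, 1.74, 2.48 and 1.67 CPM in trained Tg against 0.380, 0.462, 0.566 and 0.101 in untrained WT, a log2FC of 2.38 (SE 0.366, adjusted p = 0.00558, edgeR). It too belongs to a family of near-identical copies. The unnamed model Gm17167 on chromosome 4 measured 6.48, 6.35, 3.52 and 5.26 CPM against 0.280, 0.302, 0.212 and 0.262, a log2FC of 4.33 at an adjusted p of 5.16e-08. It lies with 3 further unnamed models apart (Gm13301, Gm5859 and Gm17081) between 42206998 and 42240202. On chromosome 14, Entpd4, an intracellular nucleotidase with near copies beside it, and 5 unnamed models between 69277601 and 69616046 were apart in the same direction. Gm20236 and Gm37094 had equal values in every library, as did Gm38378 and Gm37513, so the models of a pair are not separate measurements. Both models of each pair enter the counts of genes apart and of runs given above.

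Single-copy genes apart included Rell1 and Zfp462, both lower in untrained WT, and Tmem267, which was higher. Rell1, a TNF receptor relative, measured 5.93, 6.32, 6.55 and 6.74 CPM in trained Tg and 4.54, 4.27, 5.12 and 4.41 in untrained WT. Its combined log2FC of 0.48 (SE 0.0681, adjusted p = 0.00307, edgeR) stood beside single differences of 0.40 and 0.48. Tmem267 measured 9.19, 9.88, 6.18 and 9.51 CPM in trained Tg and 16.3, 14.9, 16.4 and 15.7 in untrained WT; trained WT averaged 11.2 and untrained Tg 6.08. Here the order differed, with the lowest levels in untrained Tg, and the combined log2FC was -0.87 against -1.38 for the transgene alone. Notch3, Egfr and Hspa8, described above, also met the rule for genes apart.

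A called departure away from the genes apart was that of Apold1, an early-response gene of endothelium. It measured 5.37, 4.63, 3.48 and 5.57 CPM in trained Tg and 5.79, 2.06, 4.27 and 4.27 in untrained WT, which overlapped, and 11.9, 13.2, 14.9 and 17.0 in untrained Tg. The combined log2FC was 0.22 (adjusted p = 0.691), while the single differences were 0.80 and 1.80, and the departure was -2.38 (SE 0.384, adjusted p = 0.0268, edgeR). It was not called in 8 of the 16 fits without 1 library (adjusted p up to 0.0785). The other one was at the unnamed model Gm15737 on chromosome 6 (-2.35).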

How the data were processed

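RNA was taken from skeletal muscle and made into libraries with a SMARTer mRNA-seq kit, per the labels' protocols. STAR 2.7.8a, RSEM 1.3.2 and the mm10 build are named in the submitters' processing notes; the annotation release and strand setting are not given in the sources used here. The deposited table holds RSEM expected counts per gene, not normalized, of which 12.48% were not whole. They were rounded to whole numbers, since edgeR's count model needs them. RSEM divides reads among similar genes.

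Genes were kept with filterByExpr by group (17490), scaled with TMM and fitted with edgeR 4.0.16 (R 4.3.3), quasi-likelihood, with a mean for each of the 4 groups over all 16 libraries. SE is the log2FC divided by the root of F. Alternatives were DESeq2 1.42.0, voom with limma 3.58.1, RLE size factors, all genes without a filter, a floor of 1 CPM in 4 libraries, a replicate block, removal of mitochondrial rRNA, only the 8 libraries of the 2 groups, and leaving out each library. Leaving out the libraries above 10 CPM of Alb or of Myh7 was added after seeing the data. The fit was tested on simulated data.

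The comparison and 33 gene lists were chosen with earlier results of these data known, and 8 further lists after the values were seen. Genes named are Chchd4, Triap1, Myod1, Cgas and Sting1; of called genes with a mean of at least 5 CPM, the 12 with the largest change in each direction; up to 4 called members of a list, or the 2 with the smallest p; of genes apart at 1 CPM or more, the 8 with the smallest p; and of departures, the 5 with the smallest p. Unnamed models were left out of this rule. The text prints a part of them. Egfr, Gm17167, Gm15737, Entpd4, Hsp90aa1, Dnaja4, Lmod1 and the members of the 8 further lists were picked after their values were seen. The replicates of a group were not within sampling noise of each other (lowest chi-square per degree of freedom 7.08). Gene positions come from the GENCODE vM21 annotation of GRCm38.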

Additional observations from a re-analysis of the deposited data

Results flagged for a closer look

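In 164 sets of 4 libraries tested with Dixon's 95% criterion, 6 held a library far from the other 3; chance gives about 1 in 20 sets. In trained Tg, Hspb7 was lowest in library 3 at 94.54 CPM (others 177.4 to 192.7), Ifi205 highest in library 1 at 4.981 CPM (others 2.913 to 2.947), and Hist1h4m lowest in library 1 at 0.6012 CPM (others 1.417 to 1.561). In untrained WT, C4b was highest in library 2 at 42.47 CPM (others 8.822 to 11.73), Thbs1 highest in library 3 at 78.7 CPM (others 15.56 to 16.11), and Thap2 highest in library 1 at 13.88 CPM (others 10.82 to 11.22).

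The interaction term in edgeR, the difference in the response to training between the genotypes, was called at 9 gene models. The difference was -4.71 for Gm17167, -6.40 and -4.62 for the pair of models named Gm13301, -5.45 for Gm17081, 1.04 for Thap2, 0.85 for Zfc3h1, -2.38 for Apold1 and -2.35 for Gm15737. For Hist1h4m the fitted value was -9.29, which depends on the prior count because untrained WT held no count. At 7 of the 9 models, all but Apold1 and Gm15737, untrained WT stood apart from the other 12 libraries. Gm17167, for example, averaged 0.264 CPM in untrained WT, 6.89 in trained WT, 5.54 in untrained Tg and 5.40 in trained Tg. The calls of Zfc3h1 and Apold1 were lost in 7 and 8 of the 16 fits without 1 library.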

How the results depend on the processing

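DESeq2 called 971 genes in the combined difference, 68 for training in WT, 442 for the transgene, 37 departures and 579 for untrained WT against the other groups. Without a filter 15 departures were called. The replicate numbers did not pair the libraries: same-numbered trained Tg and untrained WT libraries had correlated deviations of -0.0413, -0.0234, -0.0313 and 0.0832. With the replicate block the combined difference had 235 calls, the transgene 66 and untrained WT against the others 103. Fitting only the 8 libraries gave 389 calls, 141 higher and 248 lower, of which 206 were shared with the 362. Without the libraries above 10 CPM of Alb training in WT had 42 calls. Without those above 10 CPM of Myh7 the transgene had 32, the departure 4 and untrained WT against the others 92. Leaving out 1 library at a time gave 37 to 608 calls in the combined difference, 16 to 30 for training in WT, 43 to 138 for the transgene, 6 to 12 departures and 62 to 320 for untrained WT against the others. Other settings kept these counts within 1.5 times. The causes were not tested.

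Genes that changed sign were not called. Sting1 was 0.0094 with limma-voom and -0.15 to 0.13 without 1 library. Cd3e was -0.026 with the block, -0.305 without the Alb libraries, -0.304 without the Myh7 libraries and -0.30 to 0.26 without 1 library. Alas2 and Apold1 were -0.016 and -0.012 without either set, and -0.016 to 0.28 and -0.012 to 0.44 without 1 library. Lmod1 was -0.18 to 0.0397 without 1 library. Of 76 named called genes 15 kept the call in all 16 such fits.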
